A study of Mus musculus with 12 samples.

Results

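The annexin family was described by 9 genes, Anxa1, Anxa2, Anxa3, Anxa4, Anxa5, Anxa6, Anxa7, Anxa11 and Anxa13, of 52636 annotated genes counted in the liver. They were named as a list that was chosen by name and by the measured diet difference, Anxa5 being the member whose counts separated the diet groups, so the diet difference of each member is given as a description without a p-value, and the number of members that a test calls is printed beside the number or share of all genes called. Of the 9 members, 8 reached a mean of 12 counts per library and passed the filter on low counts, beside 12453 genes that passed it in all. Anxa13 did not pass, with a mean count of 10.7.

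Liver RNA-seq was compared between 6 VDD-F1 and 6 VDS-F1 mice, all C57Bl/6J males dissected at 16 weeks of age, with 1 library per mouse. The mothers of VDD-F1 mice ate chow without vitamin D (VDD) before mating and until delivery, and those of VDS-F1 mice ate chow with enough of it (VDS). The deficient mothers also received calcium gluconate, so that the lack of vitamin D and the added calcium cannot be told apart here. All mothers received the sufficient diet from delivery on and the offspring ate it after weaning, so the groups differ in the mothers' diet before birth and not in the diet at the time of sampling. The study gives as a limit that vitamin D recovers slowly after such a switch, so the offspring also met low vitamin D early after birth. The litter of each mouse is not given in the sources used here, so mice of a group may share a mother.

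Annexins are cytosolic proteins that bind membranes rich in phosphatidylserine and other acidic lipids when calcium rises, through a conserved core of repeats, while the N-terminal part differs between members and binds partners such as S100 proteins. They take part in membrane repair, in vesicle traffic and fusion, and outside the cell in coagulation, fibrinolysis and the clearance of dying cells. In the liver, Anxa6 is an abundant protein of hepatocyte endosomes, Anxa4 is known from bile duct epithelium, and Anxa1 and Anxa2 are known from macrophages, bile ducts and fibrotic tissue.

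The sequence before the transcription start is shown for Anxa5, the member with the clearest separation of the diet groups, and for Anxa2, the member with the highest fold change. Both are the 250 bases upstream of the start, taken from RefSeq on GRCm38.p6 and written 5′ to 3′ on the strand of the gene, with motif matches in capitals. The window of Anxa5 lies at chr3:36475888-36476137 on the minus strand and that of Anxa2 at chr9:69453433-69453682 on the plus strand.
Anxa5: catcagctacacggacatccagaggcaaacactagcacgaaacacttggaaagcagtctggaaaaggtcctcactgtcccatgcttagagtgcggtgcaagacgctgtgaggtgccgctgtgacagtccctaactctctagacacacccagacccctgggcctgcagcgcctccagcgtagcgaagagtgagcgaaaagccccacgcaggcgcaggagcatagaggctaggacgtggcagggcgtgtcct
Anxa2: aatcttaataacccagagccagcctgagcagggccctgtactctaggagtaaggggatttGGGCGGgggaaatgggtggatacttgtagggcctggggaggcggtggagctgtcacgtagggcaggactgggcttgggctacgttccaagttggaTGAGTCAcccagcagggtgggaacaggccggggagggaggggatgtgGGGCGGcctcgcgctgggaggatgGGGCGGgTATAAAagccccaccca

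The motifs searched on both strands were TATAAA (a core promoter element), GGGCGG (a GC box), TGANTCA (an AP-1 site), AGGTCA (a hexamer bound by nuclear receptors), GGTTCA (a hexamer of vitamin D receptor sites) and CACGTG (an E-box). Of 32851 RefSeq windows of this length, 12.4% held TATAAA, 32.7% GGGCGG, 6.75% TGANTCA, 14% AGGTCA, 8.85% GGTTCA and 6.02% CACGTG. The Anxa2 window held TATAAA at 17 bases before the start, TGANTCA at 95 bases and GGGCGG in 3 places. The Anxa5 window, with a GC content of 58.8% beside 62.4% for Anxa2, held none of the 6 motifs. Of the other members in the table, Anxa1 held TATAAA at 32 bases and GGTTCA at 241 bases, Anxa4 held no match before either of its starts, and Anxa11 held 3 matches of GGGCGG. Both windows of Anxa7 held this GC box too, of which 1 also held GGTTCA at 140 bases and the other CACGTG at 113 bases. No window of the 6 members in the table held AGGTCA. A match is a description of letters and not of a bound site.

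Each library held between 14275793 and 20815066 fragments counted on genes, and TMM factors, which scale library sizes for composition, ran from 0.899 in VDD3 to 1.14 in VDD2. Levels are given as CPM, the count of a gene per 1000000 counts of the TMM-scaled library. Albumin and the other hepatocyte markers were high in every library, with a summed level of 78178 to 107461 CPM over 8 genes. In the library of VDS6, 11.1% of all fragments, unmapped ones included in the total, were mapped but counted on no gene on the strand used. The study's supplement records a liver weight for 7 of the 12 mice, namely VDD4, VDD5 and VDD6 and the VDS-F1 mice from VDS3 to VDS6, called recorded mice here. The other 5 are called unrecorded, and the diet differences of several genes are also given within both sets. In the supplement 1 of these mice is spelled VSD3, which was read as VDS3.

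Per kilobase of exon, the scale on which genes can be compared, Anxa5 and Anxa6 were the most abundant annexins of the liver. The mean level over 12 mice was 64.9 ± 25.6 CPM per kb (SD) for Anxa5 and 42.5 ± 3.91 for Anxa6. Anxa5, the phosphatidylserine-binding protein used as a probe of dying cells, was above Anxa6 in 9 of 12 mice, namely in all 6 VDD-F1 and in 3 of the VDS-F1 mice. Anxa7, a member with a long N-terminal part that was first described in granule fusion, followed at 13.6 ± 1.71 CPM per kb, and Anxa4 at 8.92 ± 1.06 CPM per kb. Anxa6, Anxa7 and Anxa4 were each above the next member in 11 or 12 of 12 mice.

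Anxa2 and Anxa11 shared a mean of 4.42 CPM per kb and could not be ordered, with an SD of 3.80 for Anxa2 and 0.523 for Anxa11. Anxa2 was above Anxa11, a calcium sensor that tethers RNA granules to lysosomes, in 4 of 12 mice. The low end held Anxa1 at 1.05 ± 0.654 CPM per kb, Anxa3 at 0.799 ± 0.323 and Anxa13 at 0.445 ± 0.405. Anxa1 was above Anxa3 in 8 of 12 mice, so that these neighbours did not separate either.

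**Figure D1:**
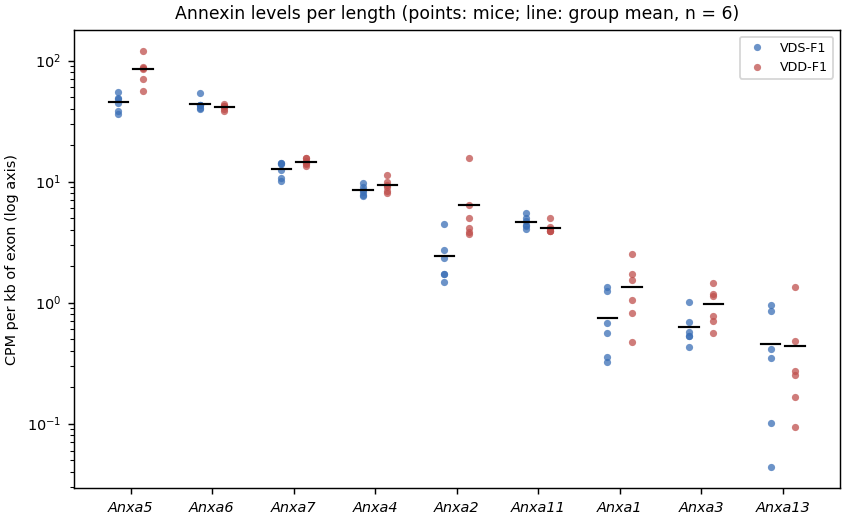
Levels of the 9 annexins in CPM per kb of exon on a log axis, with 1 point per mouse (blue, VDS-F1; red, VDD-F1) and a line at each group mean (n = 6). Anxa5 and Anxa6 head the order, and the points of Anxa5 and Anxa2 in VDD-F1 lie mostly above those in VDS-F1.

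The summed level of the 9 members was 163 ± 28.9 CPM per kb (SD, n = 6) in VDD-F1 against 119 ± 9.98 CPM per kb in VDS-F1, with ranges of 126 to 212 and 106 to 134 that overlapped. Anxa5 took 51.3 ± 4.28% of this sum in VDD-F1 against 37.8 ± 3.80% in VDS-F1, with ranges of 44.5% to 56.4% and 34.2% to 44.3%. These ranges meet at VDD1, with 44.5%, and VDS1, with 44.3%, the mice whose gap in Anxa5 itself was not resolved. Because Anxa5 was named for its separation of the diet groups, its share and its ratio to another member restate that choice. The share of Anxa6 was 25.8 ± 3.73% and 36.8 ± 2.47%. The ratio of Anxa5 to Anxa6 per kilobase was 2.04 ± 0.482 in VDD-F1 against 1.04 ± 0.165 in VDS-F1. The level of Anxa6 itself was 41.2 ± 1.87 CPM per kb in VDD-F1 against 43.8 ± 5.11 in VDS-F1.

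In the comparison of VDD-F1 with VDS-F1, Anxa5 was 1.87-fold higher in VDD-F1 and Anxa2 2.66-fold higher, Anxa1 and Anxa3 were 1.80-fold and 1.55-fold higher with overlapping groups, and Anxa4, Anxa6, Anxa7 and Anxa11 lay within 1.16-fold. With edgeR's quasi-likelihood test and Benjamini-Hochberg adjustment over all genes, 0 of the 8 tested members had an adjusted p under 0.05, beside 0.0402% of all genes tested (5 of 12453). At an unadjusted p under 0.05 there were 4 members (Anxa2, Anxa3, Anxa5 and Anxa7), all higher in VDD-F1, beside 15.8% of all genes, of which 9.55% were higher and 6.29% lower. DESeq2's Wald test called 2 members, Anxa5 and Anxa2, beside 4.05% of 12447 genes, and voom with quality weights called 2, Anxa5 and Anxa2, beside 4.74%. In edgeR, Anxa5 and Anxa2 were called without VDD1, where 420 of 12464 genes were called, and Anxa5 without VDD3, where 142 of 12493 were. The member list was made with this contrast known, so nothing is read from these counts. The log2-fold change was above 0 for 6 of 8 members and 50.8% of all genes, and its median was 0.42 over the tested members and 0.0041 over all genes.

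Anxa5 (ENSMUSG00000027712.13, chr3:36448923-36475894, minus strand, GRCm38) had 99.2, 213, 157, 155, 152 and 125 CPM in VDD1 to VDD6 and 98.3, 85.0, 68.0, 79.9, 64.4 and 86.3 CPM in VDS1 to VDS6. Every VDD-F1 mouse was above every VDS-F1 mouse, which held for 1 of the 8 tested members and for 0.61% of all genes, while the reverse held for 0 members and 0.57% of all genes. The lowest VDD-F1 mouse, VDD1, and the highest VDS-F1 mouse, VDS1, were next to each other. Their 95% exact Poisson intervals, which cover counting error only, ran from 94.3 to 104 CPM and from 94.1 to 103 CPM and overlapped, so this gap was not resolved at this depth. The group means were 150 ± 38.0 CPM and 80.3 ± 12.5 CPM (SD, n = 6), a log2-fold change of 0.90 (SE 0.16). It was 0.95 (SE 0.12) within the 7 recorded mice and 0.77 (SE 0.32) within the 5 unrecorded ones, and without VDD2, the mouse with the highest value, it was 0.78.

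Anxa2 (ENSMUSG00000032231.14, chr9:69453620-69491795, plus strand) forms a complex with S100a10 that gathers plasminogen and its activator on the cell surface. It had 13.8, 58.0, 18.8, 23.7, 14.3 and 15.3 CPM in VDD1 to VDD6 and 6.47, 16.6, 6.39, 10.2, 5.55 and 8.80 CPM in VDS1 to VDS6. VDD2 stood far above the rest, and the groups overlapped through VDS2, which lay above VDD1, VDD5 and VDD6. The means were 24.0 ± 17.1 and 9.0 ± 4.10 CPM, a log2-fold change of 1.41 (SE 0.37) that was 0.93 without VDD2. Within the recorded and the unrecorded mice it was 1.19 (SE 0.23) and 1.41 (SE 0.69).

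Anxa1 (ENSMUSG00000024659.14, chr19:20373428-20390944, minus strand), a glucocorticoid-induced protein that limits neutrophil recruitment through formyl peptide receptors, was low, with 15 to 140 counts per library. It had 1.39, 7.31, 2.41, 4.46, 3.05 and 5.04 CPM in VDD1 to VDD6 and 3.90, 3.60, 1.99, 0.936, 1.04 and 1.65 CPM in VDS1 to VDS6, and the groups overlapped widely. Among the recorded mice, all 3 VDD-F1 mice were above all 4 VDS-F1 mice. The share of all genes that separate so in these few mice was not computed, and edgeR called 1358 of 12369 genes in this set, so nothing is read from it. The log2-fold change was 0.85 (SE 0.42) over all mice, 1.59 (SE 0.31) in the recorded mice and -0.0028 (SE 0.68) in the unrecorded ones. Anxa3 (ENSMUSG00000029484.12, chr5:96793339-96845966, plus strand), a small member known from neutrophils and endothelial cells, ranged from 2.03 to 5.32 CPM around a median of 3.49 in VDD-F1 and from 1.56 to 3.72 around 2.01 in VDS-F1. Its groups overlapped, with a log2-fold change of 0.63 (SE 0.27).

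For Anxa4, Anxa6 and Anxa11 the group means lay close to each other. Anxa4 (ENSMUSG00000029994.17, chr6:86736840-86793584, minus strand) ranged from 37.6 to 52.9 CPM around a median of 42.6 in VDD-F1 and from 35.6 to 44.9 around 38.9 in VDS-F1, with a log2-fold change of 0.14 (SE 0.09). Anxa6 (ENSMUSG00000018340.13, chr11:54979108-55033445, minus strand), which takes part in cholesterol traffic from endosomes, ranged from 112.7 to 127.7 CPM around 122.6 and from 117.0 to 158.0 around 125.0, with a log2-fold change of -0.09 (SE 0.08). Anxa11 (ENSMUSG00000021866.15, chr14:25842156-25886804, plus strand) ranged from 16.1 to 20.8 CPM around 16.5 and from 16.9 to 22.8 around 18.9, with a log2-fold change of -0.16 (SE 0.10). All of these groups overlapped, and the differences were between 1 and 2 standard errors.

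Anxa7 (ENSMUSG00000021814.17, chr14:20455260-20480133, minus strand) had 84.0, 93.2, 92.9, 85.8, 88.4 and 80.4 CPM in VDD1 to VDD6 and 60.3, 64.7, 83.9, 84.6, 85.3 and 74.7 CPM in VDS1 to VDS6. The low values were those of VDS1 and VDS2, VDS6 was also below the VDD-F1 mice, and VDS3, VDS4 and VDS5 lay within their range. Its log2-fold change of 0.21 (SE 0.10) was 0.05 (SE 0.08) within the recorded mice and 0.53 (SE 0.15) within the unrecorded ones. Anxa13 (ENSMUSG00000055114.7, chr15:58341471-58389244, minus strand), a member of intestinal and kidney epithelium, had 1 to 35 counts per library. It ranged from 0.126 to 1.83 CPM in VDD-F1 and from 0.0590 to 1.28 CPM in VDS-F1 with full overlap, and no difference was detectable at this depth.

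**Figure D2:**
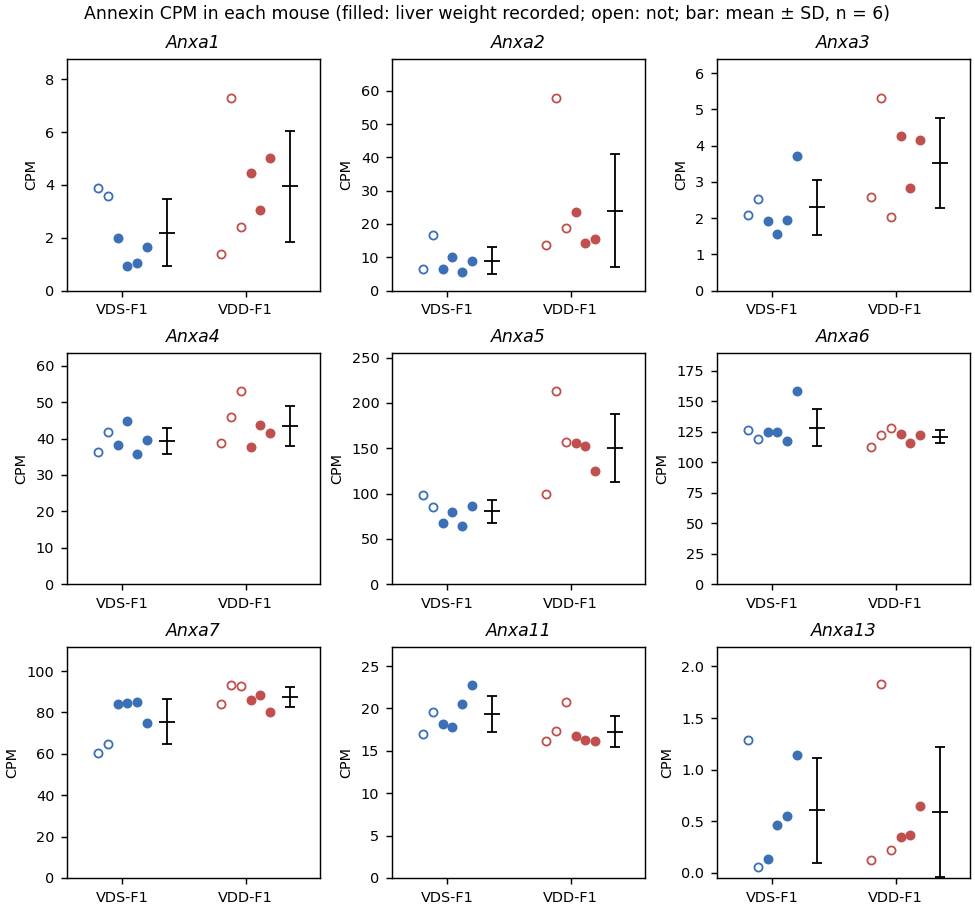
CPM of each annexin in each mouse, in panels with their own axes; filled points are mice with a recorded liver weight, open points mice without one, and the bar beside each group is the mean ± SD (n = 6). The groups are apart for Anxa5 only, VDD2 stands out for Anxa2, and the lower error bar of Anxa13 in VDD-F1 reaches below 0.

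Among the 8 tested members, the spread among VDD-F1 mice was widest for Anxa1 and Anxa2. On the log2 CPM scale the SD within VDD-F1 was 0.82 for Anxa1, 0.78 for Anxa2, 0.51 for Anxa3 and 0.37 for Anxa5, beside a median of 0.27 over all genes. In VDS-F1 it was 0.81, 0.58, 0.41 and 0.23, beside a median of 0.23. Anxa6 and Anxa7 varied less, with 0.07 and 0.08 in VDD-F1 and 0.16 and 0.22 in VDS-F1. Anxa13, with few counts, had the widest spread of the 9, with an SD of 1.05 in VDD-F1 against 1.203 in VDS-F1.

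The difference between recorded and unrecorded mice, with diet in the model, is a contrast that the choice of members did not use. By edgeR's quasi-likelihood test, 0 of 8 members had an adjusted p under 0.05 and 0 had an unadjusted p under 0.05, beside 2.46% and 13.9% of all genes. The log2 difference, recorded minus not recorded, was -0.68 (SE 0.34, adjusted p = 0.407 by edgeR) for Anxa2, -0.58 (SE 0.41, adjusted p = 0.593) for Anxa1 and -0.20 (SE 0.15, adjusted p = 0.638) for Anxa5. For Anxa3, Anxa4, Anxa6, Anxa7 and Anxa11 it lay between -0.08 and 0.14. Without VDD2 it was -0.23 for Anxa2, -0.31 for Anxa1 and -0.077 for Anxa5.

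Whether the diet difference itself differed between these sets of mice was tested with the interaction term of the same model. No member passed in edgeR's test (0 of 8, beside 0.0883% of all genes), and 2 members, Anxa1 and Anxa7, had an unadjusted p under 0.05, beside 9.01% of all genes. The interaction was 1.58 on the log2 scale for Anxa1 (SE 0.72, adjusted p = 0.550 by edgeR), where the diet difference was larger in the recorded mice, and -0.48 for Anxa7 (SE 0.14, adjusted p = 0.294), where it was larger in the unrecorded ones. For Anxa5 it was 0.18 (SE 0.32, adjusted p = 0.930) and for Anxa2 -0.21 (SE 0.71, adjusted p = 0.962). Without VDD2 the interaction of Anxa1 was 2.58 with an edgeR adjusted p of 0.0207, so that this call rested on whether that 1 mouse was included. The unrecorded set, of 3 VDD-F1 and 2 VDS-F1 mice, then lacked 1 of its VDD-F1 mice. The calls over all genes in that fit were not counted, so nothing is read from this call.

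**Figure D3:**
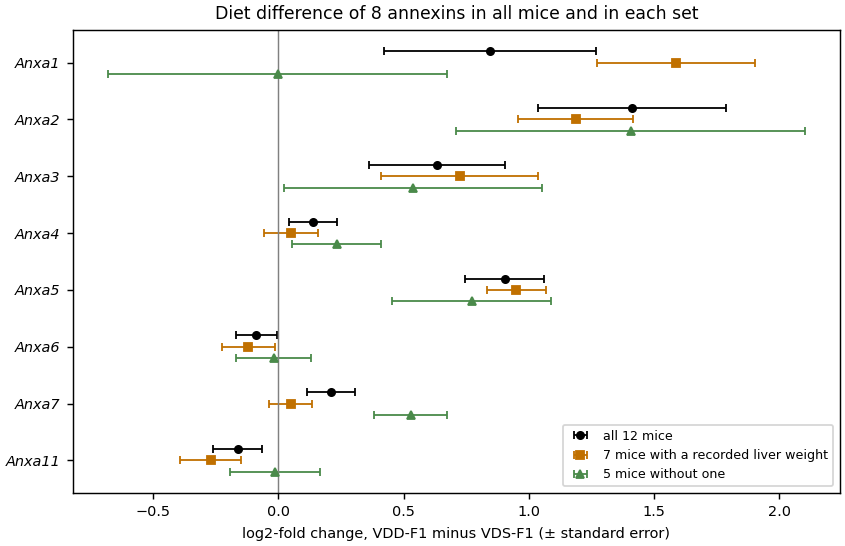
Log2-fold change of the 8 tested annexins, VDD-F1 minus VDS-F1, with its standard error, over all 12 mice (circles), the 7 mice with a recorded liver weight (squares) and the 5 without (triangles). Anxa5 and Anxa2 lie above 0 in each, Anxa1 at 1.59 and -0.0028 in the separate sets, and Anxa7 at 0.05 and 0.53.

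The log2-fold changes of the S100 partners of annexins ran from 0.03 to 1.10. S100a10, the partner of Anxa2, had 70.3 ± 20.9 CPM (SD, n = 6) in VDD-F1 against 68.6 ± 8.51 in VDS-F1, a log2-fold change of 0.03 (SE 0.17, adjusted p = 0.950 by edgeR), while Anxa2 itself was 2.66-fold higher. S100a11, the partner of Anxa1, had 7.23 ± 4.67 and 3.37 ± 0.784 CPM, a log2-fold change of 1.10 (SE 0.34, adjusted p = 0.137 by edgeR). S100a6, which binds Anxa11, had 1.56 ± 0.814 and 0.761 ± 0.626 CPM, with 1.004 (SE 0.49, adjusted p = 0.340). Ahnak, the giant scaffold recruited by the complex of Anxa2 and S100a10, had 88.9 ± 32.3 and 57.1 ± 19.7 CPM, with 0.64 (SE 0.25, adjusted p = 0.235), and Pla2g4a, the cytosolic phospholipase A2, had 0.73 (SE 0.39, adjusted p = 0.382). All of these groups overlapped. Within the recorded and the unrecorded mice the log2-fold change was -0.28 (SE 0.11) and 0.19 (SE 0.18) for S100a10, 1.71 (SE 0.43) and 0.19 (SE 0.85) for S100a6, and 0.80 (SE 0.17) and 0.36 (SE 0.48) for Ahnak.

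In single mice, S100a10 had 87.4, 72.1, 102 CPM in VDD1 to VDD3 and 55.9, 51.6 and 52.7 in VDD4 to VDD6, so that the recorded VDD-F1 mice were the lower ones. S100a11 had 3.16, 15.9, 4.22, 8.99, 5.78 and 5.36 CPM in VDD1 to VDD6 and 2.34 to 4.36 CPM in VDS-F1, and VDD1 and VDD3 lay inside the VDS-F1 range. As for Anxa2, the highest value of S100a11 was that of VDD2.

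**Figure D4:**
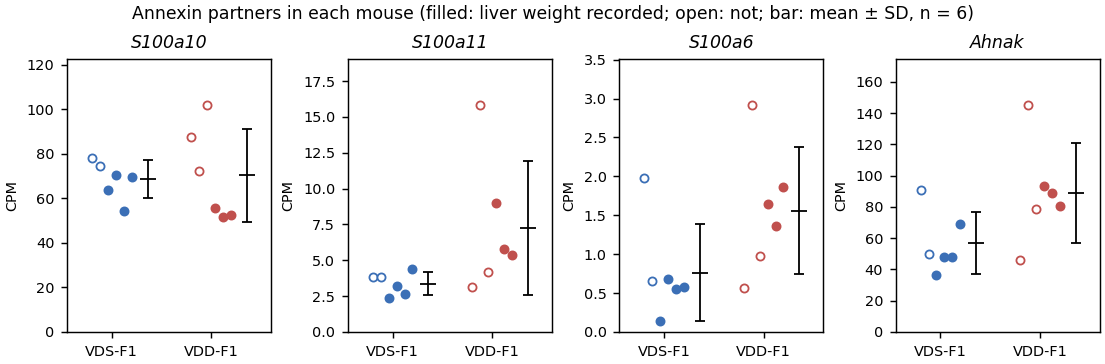
CPM of S100a10, S100a11, S100a6 and Ahnak in each mouse, with filled points for mice with a recorded liver weight, open points for the others and a bar for the mean ± SD of each group (n = 6). S100a10 has similar means in both groups, at 70.3 and 68.6 CPM, and VDD2 is the highest point of S100a11.

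In all, 3 annexin and S100 pairs were related across the 12 mice, on log2 CPM after subtraction of each diet group's mean, with 100000 resamples. For Anxa1 and S100a11, Pearson's r was 0.698 (permutation p = 0.00949, adjusted over 3 relations 0.0285) and Spearman's rho 0.636 (permutation p = 0.0300, adjusted 0.0901). Without the mice farthest from the median of Anxa1, VDD1 and VDD2, r was 0.442, and within the 7 recorded mice it was 0.031, so the relation rested on the unrecorded mice, which number 5 and are too few for a value of their own. For Anxa2 and S100a10, r was 0.203 (permutation p = 0.527, adjusted 0.547) and rho 0.273 (p = 0.390, adjusted 0.390), and r was 0.136 without VDD2 and VDS2. For Anxa11 and S100a6, r was -0.193 (permutation p = 0.547, adjusted 0.547) and rho -0.329 (p = 0.295, adjusted 0.390), and r was -0.111 without VDD3 and VDS6.

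Other genes of the pathways in which annexins act were examined in lists of 78 genes, of which 58 passed the filter on low counts. By edgeR's quasi-likelihood test 0 of 58 had an adjusted p under 0.05, while 16 were higher and 4 lower in VDD-F1 at an unadjusted p under 0.05. DESeq2 called 5 (S100a11, Cd36, Gas6 and Plau among them), beside 4.05% of all genes, and voom called 4 (Gas6, Plat, Stab2 and Ahnak), beside 4.74%. These unadjusted counts stand beside 9.55% higher and 6.29% lower over all genes.

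Among the annexin binding partners, 10 of 11 genes were tested, 8 with a positive and 2 with a negative log2-fold change and a median of 0.13, and 2 had an unadjusted p under 0.05 (S100a11 and Ahnak). In the S100 family, 6 of 14 genes were tested, all 6 with positive values and a median of 0.14. S100a16 had a log2-fold change of 0.20 (SE 0.12, adjusted p = 0.420 by edgeR), and S100a1 one of 0.07 (SE 0.10, adjusted p = 0.768).

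Anxa5 binds phosphatidylserine, and 19 of 22 genes that expose this lipid or recognize it were tested, 11 with positive and 8 with negative values, a median of 0.16 and 6 higher and 3 lower at an unadjusted p under 0.05. Cd36, a scavenger receptor that also takes up fatty acids, had 92.2 ± 34.1 CPM in VDD-F1 against 49.2 ± 12.8 in VDS-F1, a log2-fold change of 0.90 (SE 0.22, adjusted p = 0.0947 by edgeR). Gas6, the bridging ligand of the TAM receptors, had 55.0 ± 9.92 and 35.5 ± 11.4 CPM, with 0.63 (SE 0.18, adjusted p = 0.122). Both genes overlapped between the groups. In the recorded and the unrecorded mice Cd36 was at 0.51 (SE 0.18) and 1.24 (SE 0.34).

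Ano6, the calcium-activated scramblase that exposes phosphatidylserine, had groups that did not overlap. It had 19.3 ± 4.13 CPM in VDD-F1 against 14.1 ± 2.03 in VDS-F1, with 17.1 to 27.7 above 11.8 to 16.9 and a log2-fold change of 0.45 (SE 0.14, adjusted p = 0.134 by edgeR). Such separation in the higher direction was found for 0.61% of all genes. The nearest mice were VDD5, with 326 counts (17.1 CPM), and VDS2, with 286 counts (16.9 CPM), and no counting interval was computed for this narrow gap.

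In calcium-dependent membrane repair, 15 of 16 genes were tested, 10 with positive and 5 with negative values and a median of 0.08. The 4 with an unadjusted p under 0.05 were all higher: Ehd2, a caveolar ATPase, at 0.65 (SE 0.22, adjusted p = 0.185 by edgeR), Myof, a ferlin, at 0.95 (SE 0.35, adjusted p = 0.217), Chmp4b, an ESCRT-III subunit, at 0.22 (SE 0.09, adjusted p = 0.258) and Syt7, a calcium sensor of lysosome exocytosis, at 0.67 (SE 0.28, adjusted p = 0.264). In the plasminogen system, which Anxa2 serves as a receptor, 8 of 9 genes were tested, 4 with positive and 4 with negative values and a median of 0.14. Plau, the urokinase activator, had 2.30 ± 1.37 CPM in VDD-F1 against 0.965 ± 0.397 in VDS-F1 without overlap, a log2-fold change of 1.24 (SE 0.38, adjusted p = 0.137 by edgeR). The nearest mice were VDD5, with 31 counts (1.63 CPM), and VDS4, with 28 counts (1.46 CPM). Such separation was found for 0.61% of all genes, and no counting interval was computed for this narrow gap. Plat, the tissue activator, had 1.82 (SE 0.78, adjusted p = 0.278) and Plg, plasminogen itself, -0.19 (SE 0.10, adjusted p = 0.374). Between the sets, Plat was at 3.41 (SE 0.53) in the recorded and 0.84 (SE 1.18) in the unrecorded mice, and Myof at 1.18 (SE 0.20) and 0.57 (SE 0.72).

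In the axis of lipoxins and formyl peptide receptors, through which Anxa1 acts, 6 of 11 genes were tested, 3 with positive and 3 with negative values and a median of -0.0077. Tsc22d3, like Anxa1 a gene induced by glucocorticoids, had 76.6 ± 32.6 CPM in VDD-F1 against 121.9 ± 31.7 in VDS-F1, a log2-fold change of -0.67 (SE 0.29, adjusted p = 0.280 by edgeR), opposite in sign to that of Anxa1. It was -0.38 (SE 0.22) in the recorded and -1.09 (SE 0.53) in the unrecorded mice. Alox5ap, which feeds arachidonate to the lipoxygenase, had 0.34 (SE 0.35, adjusted p = 0.679) and Ptgs1, a cyclooxygenase, -0.07 (SE 0.14, adjusted p = 0.863). Of the annexins outside the list of members, Anxa9 had 0.73 (SE 0.31, adjusted p = 0.278 by edgeR), and Anxa8 and Anxa10 did not pass the filter.

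**Figure D5:**
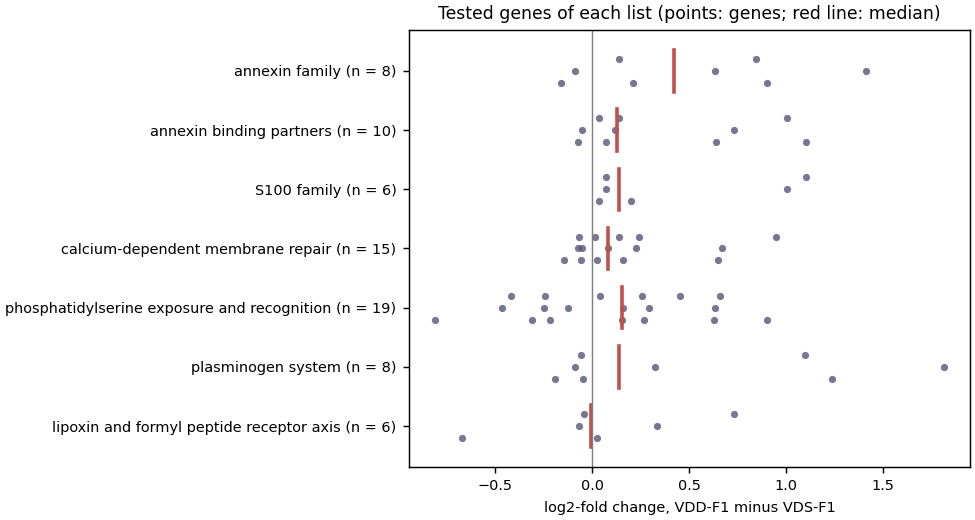
Log2-fold changes, VDD-F1 minus VDS-F1, of the tested genes of the annexin family and of each list, with 1 point per gene and a red line at the median. The median of the annexins is 0.42, and the medians of the 6 lists plotted lie between -0.0077 and 0.16.

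In bulk liver, more cells of a type and more RNA per cell cannot be told apart, and annexins are expressed by many of the cell types. Markers of monocyte-derived macrophages were all detected and all 8 had a positive log2-fold change. Each had an unadjusted p under 0.05 in edgeR, beside 9.55% of all genes in this direction. At an adjusted p under 0.05, edgeR called 0 of them, DESeq2 called 6 (beside 4.05% of all genes) and voom called Cd9 and Itgax only (beside 4.74%). The summed level of these markers was 32.0 to 194 CPM in VDD-F1 and 24.7 to 57.0 in VDS-F1. VDD2, the highest mouse for Anxa2 and Anxa5, had the 194 CPM, where the next VDD-F1 mouse had 96.7 CPM, and VDD1, the lowest VDD-F1 mouse for Anxa2 and Anxa5, had the 32.0 CPM. VDD3, in contrast, had 52.0 CPM of these markers, within the VDS-F1 range, but 157 CPM of Anxa5 and 18.8 CPM of Anxa2.

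The markers of cholangiocytes summed to 14.7 to 55.5 CPM in VDD-F1 and 15.4 to 27.2 in VDS-F1 (5 of 8 tested, all positive), those of portal fibroblasts to 27.4 to 71.5 and 25.6 to 38.8 (5 of 6 positive) and those of mesothelium to 3.21 to 19.3 and 1.99 to 11.3 (4 of 5 tested, all positive), with VDD2 at the top of each. DESeq2 called 4 of the portal fibroblast markers, 0 of the cholangiocyte and 0 of the mesothelial ones. Kupffer cell markers summed to 113 to 310 CPM and 166 to 310 CPM, with 3 positive and 5 negative values, and sinusoidal endothelial markers to 264 to 290 and 239 to 382, with 1 positive and 7 negative. Over all 65 tested markers edgeR called 0 at an adjusted p under 0.05, 28 had an unadjusted p under 0.05 (beside 15.8% of all genes), and DESeq2 and voom each called 11 (beside 4.05% and 4.74%). No marker on these lists was at 0 in all mice, and the part of these cell types in the annexin differences was not tested.

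Genes whose pattern was most like that of Anxa5 and Anxa2 were ranked by Pearson's r of log2 CPM over the 12 mice, after each diet group's mean had been subtracted. For Anxa5 they were Clint1 (r = 0.953), an adaptor of clathrin vesicles, Map2 (0.949) and Dpysl2 (0.948), which bind the cytoskeleton, Uap1l1 (0.926) and Slc29a3 (0.925), a lysosomal nucleoside transporter. Without VDD2 these values were 0.879 to 0.940, and Slc29a3 was then at rank 16. For Anxa2 they were Psd4 (r = 0.970), Tlr9 (0.952), an endosomal DNA receptor, Man2b2 (0.931), a lysosomal mannosidase, Ube2l6 (0.931), which conjugates Isg15, and the scramblase Ano6 (0.925), with 0.823 to 0.972 without VDD2, where Ube2l6, Man2b2 and Ano6 were at ranks 14, 15 and 18. All values of a mouse come from 1 library, so they share its depth and its mixture of cells, and these are the highest of many values.

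Among the members themselves, 28 pairs were described on the same scale. The pairs with the highest r were Anxa2 with Anxa5 (0.691), Anxa1 with Anxa5 (0.682) and Anxa1 with Anxa3 (0.611), followed by Anxa6 with Anxa11 (0.575), and the lowest was Anxa1 with Anxa7 (-0.558). Mice high in Anxa5 within their group thus tended to be high in Anxa1 and Anxa2 too.

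The neighbours on the chromosome had smaller differences than Anxa5 and Anxa2. The nearest tested genes on either side of Anxa5 were Exosc9, at 76712 bp with a log2-fold change of 0.07 (SE 0.14), and D3Ertd254e, at 278581 bp with 0.35 (SE 0.17). Those of Anxa2 were Ice2, at 20498 bp with -0.11 (SE 0.16), and Bnip2, at 497671 bp with 0.18 (SE 0.10). Annotated genes overlapping a member on either strand held at most 9 counts each over all 12 libraries.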

How the data were processed

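Liver RNA of 6 VDD-F1 and 6 VDS-F1 male mice was sequenced with 1 library per mouse. Reads were trimmed and mapped to GRCm38 (mm10) with STAR by the authors, whose deposited files hold unnormalized counts for each gene, 1 column ignoring strand and 1 for either strand. The reverse-strand counts were used. Symbols, positions and exon lengths came from GENCODE M21, where the authors used M15, and 52489 of 52636 gene IDs matched. The members and the gene lists were chosen with earlier results of these data known.

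Genes with 12 or more counts per library on average were fitted with edgeR 4.0.16 in R 4.3.3 (TMM, quasi-likelihood test, legacy form) and p-values were adjusted by Benjamini-Hochberg over all tested genes. The study's methods name DESeq2, which was an alternative (DESeq2 1.42.0), as was voom with quality weights in limma 3.58.1. Log2 CPM used a prior count of 2. Standard errors were derived from the fold change and its F statistic. The methods were tested on simulated counts. Named genes were the 9 members, S100a10, S100a11 and S100a6, the 4 genes of each list with the smallest p, and the 5 genes most like Anxa5 and Anxa2. Other genes appear only as counted names, as other annexins or as neighbours. Some genes of the lists are counted but not reported by name here. Alternatives were other tests, size factors, filters, counts without strand, the set of mice as a covariate or alone, a replicate block, and each mouse left out.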

Additional observations from a re-analysis of the deposited data

Results flagged for a closer look

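In 4 of 22 combinations of a gene and a diet group, 1 mouse stood apart from the other 5 by Dixon's criterion, which chance meets in about 1 of 20 groups. Anxa2 in VDD2 was at 58.0 CPM, where the next VDD-F1 mouse was at 23.7. Anxa6 in VDS6, the library with 11.1% of fragments mapped but counted on no gene, was at 158.0 CPM, where the next VDS-F1 mouse was at 126.1. Anxa11 in VDD3 was at 20.8 CPM, where the next VDD-F1 mouse was at 17.4. S100a6 in VDS1 was at 1.97 CPM, where the next VDS-F1 mouse was at 0.676. The causes were not tested.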

How the results depend on the processing

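The number of annexins called for diet, 0 with edgeR, was 2 with DESeq2 and 2 with voom, 1 without the filter on low counts, 1 with the set of mice as a covariate, 1 with a replicate block and 3 in the mice with a recorded liver weight alone. Over all genes edgeR called 5 of 12453, and these settings called 4.05% (DESeq2), 4.74% (voom), 85 of 24759 genes (no filter), 28 (covariate), 19 (block) and 1358 of 12369 (recorded mice). The replicate numbers do not pair mice: deviations of same-numbered mice had r from -0.076 to 0.103, and 0 of 6 mice correlated best with their own number. The number of pathway genes called, 0 with edgeR, was 5 with DESeq2, 4 with voom and 13 in the mice with a recorded liver weight, where the 1358 genes were called. In the mice without one, Anxa1 was at -0.0028, Anxa7 at 0.53 and Anxa11 at -0.013, the membrane repair median was 0.22 and the plasminogen median 0.59. The other 228 values kept their direction or stayed within the spread between mice, and the cause of the changes was not tested.

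With each mouse left out, the annexins called ranged from 0 to 2 (2, Anxa5 and Anxa2, without VDD1; 1, Anxa5, without VDD3) and the pathway genes from 0 to 3 (without VDD1), while the calls over all genes ranged from 0 to 420 (without VDD1) and were 142 without VDD3. The diet log2-fold change ranged from 0.58 to 1.1 for Anxa1, 0.93 to 1.68 for Anxa2, 0.48 to 0.82 for Anxa3, 0.075 (without VDD3) to 0.18 for Anxa4, 0.78 to 1.0 for Anxa5, -0.11 to -0.020 (without VDS6) for Anxa6 and 0.15 to 0.25 for Anxa7. The phosphatidylserine median ranged from -0.020, without VDD2, to 0.23, the plasminogen median from 0.070 (without VDD1) to 0.25 (without VDS3), the membrane repair median from 0.048 (without VDD4) to 0.13 (without VDS4) and the lipoxin median from -0.045 (without VDS5) to 0.037 (without VDS2). The set difference ranged from -0.85 to -0.31 for Anxa1, -0.88 to -0.23 for Anxa2, -0.13 to -0.018 for Anxa4, -0.33 to -0.077 for Anxa5, 0.058 to 0.18 for Anxa7, -0.060 to 0.31 for Anxa3, -0.0045 to 0.063 for Anxa6 and -0.085 to 0.042 for Anxa11. The interactions called ranged from 0 to 1 (Anxa1, without VDD2), where the calls over all genes were not counted. The interaction ranged from 1.19 to 2.58 for Anxa1, -1.04 to 0.68 for Anxa2, -0.10 to 0.71 for Anxa3, -0.064 to 0.47 for Anxa5 and -0.15 to 0.00026 for Anxa6. Anxa1, Anxa3 and Anxa13 have few counts, which limits their precision.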
